A study of Mus musculus with 6 samples.

Results

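Immediate neuronal precursors are the cells of the main olfactory epithelium (MOE) that have committed to the neuronal fate and are about to become olfactory sensory neurons (OSNs). They were taken from single-cell RNA-seq of 6 libraries as cells with at least 3 UMIs of *Neurog1* and *Neurod1* together, fewer than 5 of *Gap43*, fewer than 10 of *Omp* and fewer than 5 of *Cyp2g1*. A UMI (unique molecular identifier) is a counted RNA molecule. The rule found 728 precursors among the 24830 cells with at least 1000 UMIs and 500 genes. The cells were thus chosen by the measured values of these 5 genes, so the levels of these genes, and every difference between precursors and other cells, are given as a description with no test.

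The study asked what happens to olfactory receptor (OR) choice when the heterochromatin protein HP1β (*Cbx1*) is replaced by its paralog HP1α (*Cbx5*). Swap mice (2 libraries) carried the CbxSwap alleles together with Cre, which removes the *Cbx1* coding sequence and places *Cbx5* under the *Cbx1* promoter. The 2 control libraries differed in genotype, since the labels give control replicate 1 as a Cre carrier that is wild type at Cbx and control replicate 2 as a carrier of the swap alleles that lacks Cre. A *tetOP2* library (gg8-tTA; tetOP2iresGFP) came from a mouse in which a *Gng8*-promoter transactivator drives the OR *Olfr17*, also known as P2, and a *gg8tTA* library came from a mouse with the gg8-tTA driver alone. Ages are not given. The study reports that swap mice are runts and that few of them live to adulthood. The study's methods call the replicates biological, and p-values here measure the spread between 2 libraries a group.

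The libraries differed in ways other than genotype. By *Xist* and *Ddx3y*, swap replicate 1 and the *tetOP2* and *gg8tTA* libraries came from females (*Xist* at 1274, 1468 and 1337 CPM, the UMIs of a gene per 1000000 UMIs) and the other 3 libraries from males (*Ddx3y* at 44.9 to 55.9 CPM). The swap and control libraries held 58498968 to 63277934 UMIs each, and the *tetOP2* and *gg8tTA* libraries held 32005196 and 35298494. Control replicate 2 kept 57.5% of its barcodes at the minimum of 1000 UMIs, the lowest share of the 6 libraries. The median precursor had 10870.5 and 12608 UMIs in swap mice, 9827.5 and 14115 in control mice, 10992 in *tetOP2* and 11293 in *gg8tTA*. No pair of libraries shared more than 20 cell barcodes, and none shared a barcode among its precursors. The series text describes sorted cells, yet all libraries held sustentacular cells and mature OSNs as well, and the study's methods give a papain dissociation of the MOE with no sort for these libraries.

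In the MOE, basal stem cells divide and give rise to precursors that express *Neurog1* and then *Neurod1*, basic helix-loop-helix factors of neuronal commitment. Precursors divide for the last time, leave the cell cycle and become immature OSNs, which are marked by the growth-cone protein *Gap43* and in which a single OR allele is chosen under the transcription factors *Lhx2* and *Ebf*. Mature OSNs express that OR at a high level together with *Omp*, the olfactory marker protein, while sustentacular cells, marked by the cytochrome P450 *Cyp2g1*, are the supporting glia-like cells of the epithelium.

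Precursors made up a small share of every library, and a smaller share in the swap than in the control libraries. In swap replicate 1, 76 of 5003 kept cells were precursors, which is 1.52% (95% exact Clopper-Pearson interval 1.20% to 1.90%). In swap replicate 2 they were 77 of 4947 cells, or 1.56% (1.23% to 1.94%). In control replicate 1 they were 218 of 5091 cells, or 4.28% (3.74% to 4.87%), and in control replicate 2 they were 92 of 4433 cells, or 2.08% (1.68% to 2.54%). Both control libraries were above both swap libraries, but the control libraries lay further from each other than control replicate 2 lay from the swap libraries. The *tetOP2* library had 142 precursors among 2563 cells, or 5.54% (4.69% to 6.50%), and the *gg8tTA* library 123 among 2793, or 4.40% (3.67% to 5.23%). Like all intervals below, these cover counting error only.

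The mean share was 1.54% ± 0.0265 (SD, n = 2) in swap and 3.18% ± 1.56 (SD, n = 2) in control mice, a difference of -1.64 percentage points with p = 0.333 in a two-sided exact permutation test. With 2 libraries against 2, this is the smallest p that such a test can give, and no result of this kind can reach 0.05. The size of the difference was set largely by control replicate 1, since it was -0.538 points without that library and -2.74 points without control replicate 2. Counted per 100 cells of the early immature and mature OSN gates, precursors numbered 4.98 and 5.62 in the swap and 11.8 and 6.02 in the control libraries, with 14.3 in *tetOP2* and 11.1 in *gg8tTA*. This difference was -3.59 per 100 neurons (p = 0.333, exact permutation test), -0.717 without control replicate 1 and -6.46 without control replicate 2.

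**Figure D1:**
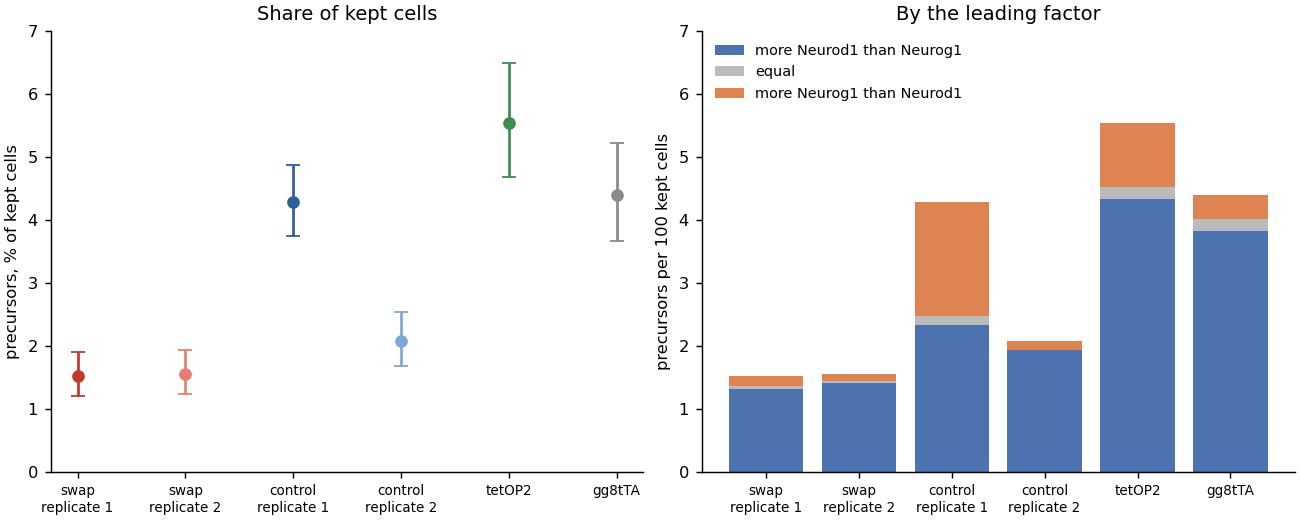
Left, precursors as a percentage of kept cells in each of the 6 libraries, with 95% exact intervals for counting error. Right, precursors per 100 kept cells, stacked by which of *Neurog1* and *Neurod1* had more UMIs in the cell; the swap libraries sit at 1.52% and 1.56%, below the other 4 libraries, and the cells with more *Neurog1* are most frequent in control replicate 1.

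The sums of *Neurog1* and *Neurod1* stood well clear of the threshold in most precursors. Their median was 17 and 26 UMIs per precursor in swap mice, 18 and 30 in control mice, 14 in *tetOP2* and 19 in *gg8tTA*. Just inside the threshold, at 3 UMIs, were 7, 6, 18, 8, 14 and 8 cells of swap replicates 1 and 2, control replicates 1 and 2, *tetOP2* and *gg8tTA* (the order of libraries in every list of 6 values below). Just outside it, at 2 UMIs with the other limits met, were 10, 7, 38, 15, 10 and 16 cells.

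The label rests on the genes of the rule, whose levels are therefore given first. In CPM of the summed precursors of a library, a level that is not scaled to gene length because only the 3′ end of a transcript is read, *Neurod1* was at 1325, 1562, 1289, 1925, 1055 and 1169. *Neurog1* was at 249, 322, 848, 186, 297 and 392 CPM. *Gap43*, limited by the rule, was at 21.7 to 52.9 CPM in precursors against a mean of 2366 in early immature OSNs. Of the markers that the rule did not use, *Kit*, a receptor tyrosine kinase of basal progenitors, was at a mean of 24.98 CPM in precursors, 2.47 in early immature OSNs, 1.06 in mature OSNs and 11.7 in sustentacular cells. Of the markers of horizontal basal cells, the keratin *Krt5* and the factor *Trp63* were at 0 in the precursors of all 4 swap and control libraries. In those of *tetOP2* and *gg8tTA*, *Krt5* had 5 and 25 UMIs and *Trp63* 3 and 1 UMIs. The level of the keratin *Krt14*, also a marker of these cells, is not given here.

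Traces of other cell types were present in the sums. The 10 sustentacular genes together were at 120, 90.3, 204, 108, 399 and 470 CPM in precursors, against 41775 to 56531 CPM in the sustentacular cells of the same libraries, and *Cyp1a2* was at 0 in swap replicate 1 and control replicate 2. Their higher sum in *tetOP2* and *gg8tTA* went with *Cyp2g1* at 75.5 and 88.4 CPM, against 14.1 to 26.2 in the other 4 libraries, and the part of such RNA in the differences between libraries was not tested. Immune genes summed to 35.5 to 131 CPM in 5 libraries and to 347 CPM in *gg8tTA*, where *Cd74* alone was at 197. In *gg8tTA*, 382 of the 405 UMIs of *Cd52*, *Fcer1g*, *Tyrobp* and *Cd74* were in 1 precursor. Of the 728 precursors, 26 held at least 10 UMIs of a group of genes typical of gland, bone or connective tissue, glia, red blood cells or immune cells, and a doublet caller marked 1, 1, 2, 2, 1 and 1 precursors. The calls of the comparison with later neurons are given below with and without such cells.

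Precursors held both factors in most cells, in proportions that differed between libraries. Both genes were found in 52, 67, 177, 68, 110 and 103 precursors. *Neurog1* UMIs outnumbered those of *Neurod1* in 8 of 76 precursors of swap replicate 1 (10.5%) and 6 of 77 of swap replicate 2 (7.79%). They did so in 92 of 218 precursors of control replicate 1 (42.2%) but in 6 of 92 of control replicate 2 (6.52%). In *tetOP2* the share was 18.3% and in *gg8tTA* 8.94%. Control replicate 1 therefore stood apart from the other 5 libraries, and the other control library lay with the swap libraries.

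**Figure D2:**
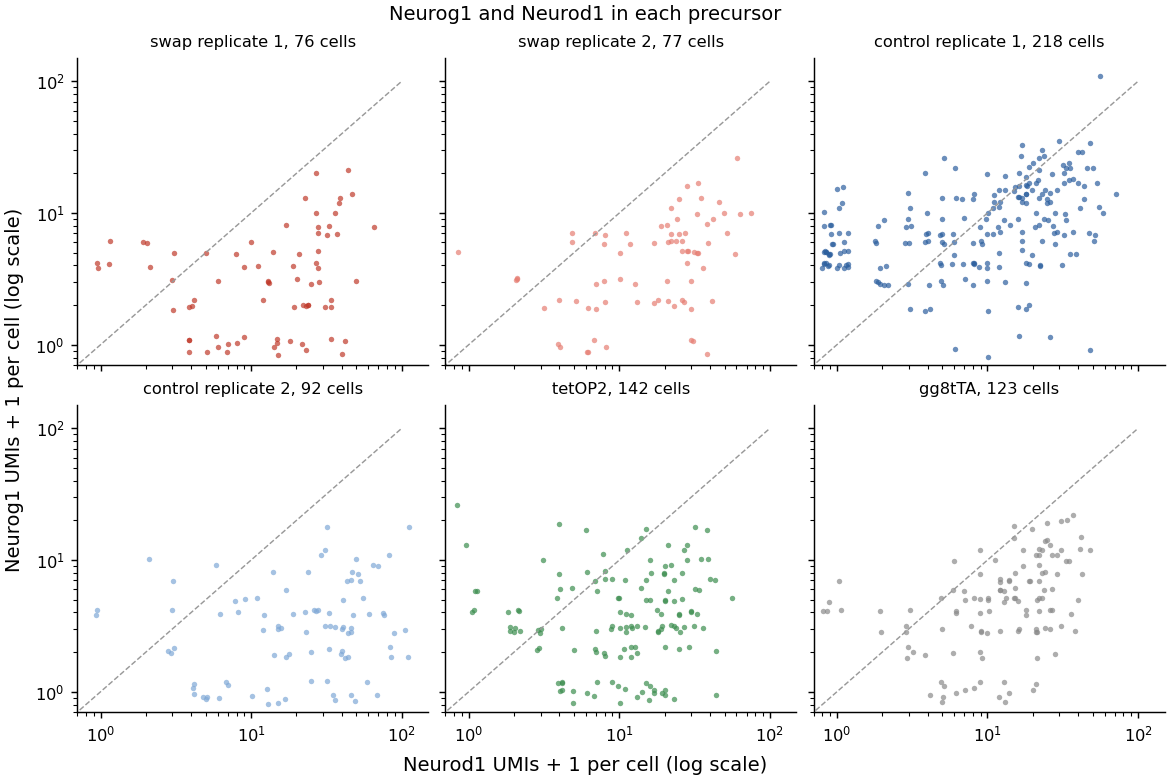
Each point is a precursor, plotted by its *Neurod1* UMIs (plus 1, log scale, horizontal axis) and its *Neurog1* UMIs (plus 1, log scale, vertical axis), in a panel per library, with a small random offset to separate points and a dashed line at equal UMIs. Of the 218 precursors of control replicate 1, 92 have more *Neurog1* than *Neurod1*, against 6 to 26 cells in the other libraries.

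The precursors with more *Neurod1* gave a smaller difference between genotypes than all precursors did. They made up 1.37 ± 0.0677 (SD, n = 2) of every 100 kept cells in swap and 2.14 ± 0.281 (SD, n = 2) in control mice. These values are given with no test, because the split used genes of the rule. The precursors with more *Neurog1* made up 0.141 ± 0.0273 per 100 in swap and 0.971 ± 1.18 in control mice, where the SD in the control exceeds the mean. The chemokine gene *Cxcl14* also set control replicate 1 apart, at 691 CPM in its precursors against 67.1 to 147 CPM in the other 5 libraries.

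Of 3384 genes compared between the 2 kinds of precursor, 17 were higher in the *Neurod1*-led cells by more than 0.58 on the log2(CPM + 10) scale in each of the 6 libraries, and 1 was higher by as much in the *Neurog1*-led cells. This count is a description with no test. The *Neurog1*-led sums of swap replicates 1 and 2, control replicate 2 and *gg8tTA* rest on 8, 6, 6 and 11 cells, so levels there come from few UMIs. The single gene was *Zfp36l1*, an RNA-binding protein that promotes mRNA decay, at 157 CPM in *Neurog1*-led and 23.0 CPM in *Neurod1*-led cells (means of 6 libraries). Among the 17 were *Neurod1* itself, which the split used, and genes of mitosis: *Ccna2*, a cyclin of S phase and G2, was at 38.0 and 124 CPM, *Tpx2*, a spindle assembly factor, at 69.2 and 181 CPM, and *Racgap1*, which acts in cytokinesis, at 132 and 298 CPM. The granin *Scg2* was at 212 and 518 CPM and the homeobox factor *Otx2* at 71.3 and 150 CPM.

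Among the genes that led the precursors were factors of neuronal differentiation, genes of centriole duplication and genes of mitosis. A total of 2256 genes reached 50 CPM in the precursors of every library, and 1030 of them had a higher mean in precursors than in any of the other 3 gates (early immature OSNs, mature OSNs and sustentacular cells). After *Neurod1*, the largest ratio to the next gate was that of the zinc-finger factor *St18* (77.8-fold, mean 108 CPM). The ratio was 49.1-fold for *Mfng*, a glycosyltransferase that modifies Notch, and 49.0-fold for *Cxcl14*, whose mean of 201 CPM includes 691 CPM in control replicate 1. It was 41.5-fold for *Ppp1r14a*, a phosphatase inhibitor, 32.2-fold for *Scg2* and 29.6-fold for *Btbd17*. *Ada*, the adenosine deaminase of purine metabolism, was 29.4-fold higher than in the next gate, and *Rbm24*, an RNA-binding protein that regulates splicing, 21.8-fold.

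*Grp*, the gastrin-releasing peptide, was 21.7-fold higher in precursors than in the next gate and *Gadd45a*, a gene of growth arrest, 9.26-fold. *Elavl4*, a neuronal RNA-binding protein, had a ratio of 9.03 at a mean of 1673 CPM. *Stil* (45.1-fold, 241 CPM) and *Plk4* (15.6-fold, 562 CPM) encode core factors of centriole duplication. *Plk4* was at 554, 879, 545, 805, 271 and 319 CPM in the 6 libraries, so its lowest 2 values were those of the *tetOP2* and *gg8tTA* libraries. Of the genes of mitosis, 3 whose next gate was that of sustentacular cells are given as examples, chosen after their values were seen. The ratio was 16.8-fold for *Ube2c*, which acts in the destruction of mitotic cyclins, 12.04-fold for the centromere protein *Cenpf* and 11.4-fold for the topoisomerase *Top2a*.

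Several regulators of early neuronal differentiation, given as examples chosen after their values were seen, were higher in precursors than in mature OSNs. Means over the 6 libraries in precursors, early immature OSNs and mature OSNs are given in this order. *Hes6*, an inhibitor of Hes factors, was at 875, 120 and 28.0 CPM, and *Ezh2*, the methyltransferase of H3K27, at 491, 102 and 30.8 CPM. *Nhlh2*, a helix-loop-helix factor of differentiating neurons, was at 649, 112 and 14.7 CPM and *Sox11*, a factor of newborn neurons, at 5461, 2056 and 137 CPM. *Insm1*, which drives the exit of progenitors from proliferation, was at 599, 634 and 116 CPM, with similar levels in the first pair of gates.

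Factors that act in OR choice were already expressed in precursors. *Lhx2*, which binds OR enhancers and promoters, was at 2588 CPM in precursors, 862 in early immature OSNs and 587 in mature OSNs. *Ebf2* was at 793, 1005 and 625 CPM and *Ebf1* at 256, 728 and 427 CPM, whereas *Ebf4* was still at 3.05 CPM in precursors against 74.6 in early immature OSNs. The histone demethylase *Kdm1a* (LSD1), required for the start of OR expression, was at 413, 240 and 88.9 CPM. The feedback that follows OR expression came later: *Atf5*, the translation-controlled factor of that feedback, was at 550 CPM in precursors and 3121 in early immature OSNs, and the OR chaperones *Rtp1* and *Rtp2* were at 14.9 and 10.97 CPM in precursors against 192 and 146. *Adcy3*, the adenylyl cyclase of odor transduction, was at 12.8 CPM in precursors and 632 in mature OSNs.

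Genes of Notch signalling, which keeps neighbouring progenitors from differentiating together, included several that were higher in precursors than in both OSN gates. *Mfng* was at 394 CPM in precursors, 8.01 in early immature OSNs and 1.68 in mature OSNs. The receptor *Notch1* was at 128, 3.54 and 2.76 CPM and the target *Hes5* at 122, 4.75 and 2.86 CPM, while *Hes1*, another target, was at 8.81, 13.4 and 9.74 CPM and was highest in sustentacular cells at 381. The cell cycle inhibitor *Cdkn1b* (p27) was at 107, 24.4 and 3.46 CPM, and *Ccnd1*, the D cyclin that drives entry into the cycle, at 187, 17.2 and 10.2 CPM. Of the genes of neurite growth, the microtubule regulator *Stmn2* was at 1880 CPM in precursors and 3803 in early immature OSNs. *Gng8*, the G protein subunit whose promoter drives the gg8-tTA line, was at 677 and 1202 CPM in the same gates. Their order relative to *Gap43* cannot be read here, since *Gap43* was used to set both gates.

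**Figure D3:**
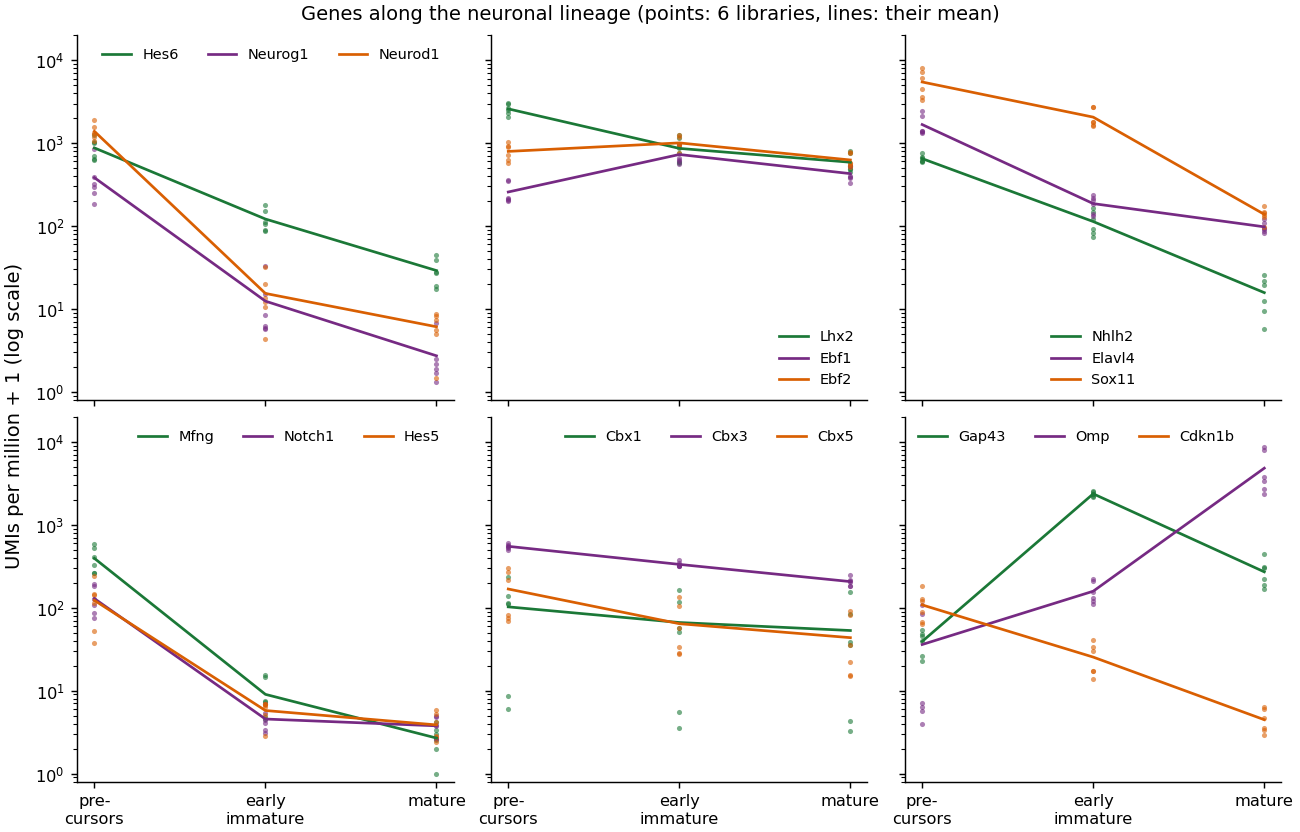
Pooled level (CPM plus 1, log scale) of 18 genes in precursors, early immature OSNs and mature OSNs, with a point per library and a line through the mean of the 6 libraries. *Hes6*, *Lhx2*, *Nhlh2* and *Elavl4* are highest in precursors of the 3 gates, *Gap43* in early immature OSNs and *Omp* in mature OSNs.

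The swap was seen directly in the HP1 genes. *Cbx1* (HP1β; chr11:96788680-96808982, GRCm38) was at 4.93 and 7.53 CPM in the precursors of the swap libraries (5 and 8 UMIs) and at 233 and 139 CPM in those of the control libraries (560 and 207 UMIs), with 115 CPM in *tetOP2* and 110 in *gg8tTA*. It was lower in swap mice by a log2 fold change of -4.86 (SE 0.43, adjusted p = 0.000419, edgeR quasi-likelihood test). *Cbx5* (HP1α; chr15:103191546-103239904) was at 270 and 297 CPM in swap and 80.3 and 213 CPM in control mice, with 67.5 in *tetOP2* and 74.7 in *gg8tTA*. The swap libraries were above all others, but the 2 control libraries differed, and the log2 fold change of 1.02 (SE 0.36) did not pass the test (unadjusted p = 0.015, adjusted p = 1 in edgeR). Without control replicate 2, *Cbx5* passed with a log2 fold change of 1.81, whereas without control replicate 1 the value was 0.49 and did not pass. *Cbx3* (HP1γ) was at 576, 499, 526, 559, 535 and 602 CPM, with a log2 fold change of 0.03. Across the gates *Cbx1* was at 101 CPM in precursors, 65.3 in early immature and 52.1 in mature OSNs (means of 6 libraries, swap included), and *Cbx5* was at 167, 63.2 and 42.5. The order did not hold for *Cbx1* in control replicate 2, at 139, 163 and 154 CPM. *Cbx1* was low in the sustentacular cells of swap mice too, at 0.630 and 1.58 CPM against 64.6 and 35.1 CPM in control mice, so the loss was not limited to neurons.

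Few genes differed between swap and control precursors. Of 8787 genes tested on the summed counts, 3 passed (an adjusted p under 0.05 with a log2 fold change past 0.58 in size), which is 0.0341%, and all 3 were lower in swap mice: *Cbx1*, *a* and *Tac1*. With 2 libraries a group only large changes could be found. With simulated counts of this comparison 21 of 96 tested genes changed 2-fold were recovered and 91 of 100 changed 4-fold. The simulated counts had the spread of the fitted trend and equal means within a group, unlike the 2 control libraries here. In the data, genes with a fitted change above 4-fold, such as *Gal* and *Ncam2* below, did not pass. At an unadjusted p below 0.05 were 295 genes, or 3.36%, of which 122 were higher in swap. The median log2 fold change over all genes tested was -0.0018, and 49.7% of genes had a positive value. The count of called genes rested on having all 4 libraries, as it was 75 without swap replicate 1, 63 without swap replicate 2, 46 without control replicate 1 and 109 without control replicate 2, each time with the same 3 genes among them and with 1 library left on one side, whose spread was assumed to be that of the others.

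The gene *a* (nonagouti; chr2:154950599-155051012, GRCm38) encodes the agouti signalling protein of coat colour, whose alleles differ between mouse strains. In precursors it had 0 UMIs in both swap libraries, 247 in control replicate 1 (103 CPM) and 226 in control replicate 2 (152 CPM). It also had 0 UMIs in *tetOP2* but 205 in *gg8tTA* (128 CPM), so the 3 libraries without it in precursors include one with no swap allele on its label. It was found in 101 of 218, 65 of 92 and 70 of 123 precursors of the libraries that had it, and 0 of 76, 0 of 77 and 0 of 142 cells with a UMI in the other libraries allow a share of cells with a UMI of up to 3.95%, 3.90% and 2.11% (3 cells of the total), which does not limit the share of cells that express the gene. Against a floor of 3 UMIs over the swap group the level in control precursors was at least 84.1-fold higher (edgeR adjusted p = 0.000265). In early immature OSNs *a* was low in every library, at 1.49, 2.13, 2.11, 3.73, 1.51 and 6.22 CPM, so it was found there also in the 3 libraries with none in precursors. In mature OSNs it was at most 0.921 CPM in any library. Gene models of *a* overlap those of *Raly*, *Eif2s2* and *Gm14226*. *Raly* and *Eif2s2* had log2 fold changes of -0.09 and 0.22 and did not pass the test. Strain is not given in the labels, and its part in this difference was not tested.

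*Tac1* (chr6:7555061-7562978), the precursor of the neuropeptide substance P, was at 0.985 and 1.88 CPM in swap and 32.0 and 38.2 CPM in control precursors, with 12.3 in *tetOP2* and 1.25 in *gg8tTA*. These levels came from 1, 2, 77, 57, 23 and 2 UMIs in 1, 2, 22, 15, 6 and 2 cells. It fell by a log2 fold change of -4.49 (SE 0.54, adjusted p = 0.00857, edgeR), yet its level in *gg8tTA* precursors was as low as in swap mice. When the precursors were taken with at least 2 or at least 5 UMIs of *Neurog1* and *Neurod1*, *Tac1* no longer passed.

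Of the genes that did not pass, those with the smallest unadjusted p and the same sign in both pairs of replicate numbers are given as values. *Hey1*, a transcriptional target of Notch, was at 73.9 and 85.6 CPM in swap and 30.8 and 23.5 CPM in control precursors, with 54.6 in *tetOP2* and 90.9 in *gg8tTA* (log2 fold change 1.57, SE 0.30, adjusted p = 0.329, edgeR). *Nrarp*, a feedback inhibitor induced by Notch, was at 69.9 and 80.9 CPM against 34.1 and 30.8 CPM (1.24, adjusted p = 0.616). In *tetOP2* and *gg8tTA*, which carry no swap allele, *Nrarp* was at 66.9 and 70.4 CPM and both genes were above the control libraries. *Cd52* and *Fcer1g*, genes of immune cells, and *Alpl*, alkaline phosphatase, also had higher values in swap mice (adjusted p = 0.112, 0.479 and 0.721). These immune values rest on few cells, since 1 cell held all 29 UMIs of *Cd52* in each swap library, and 1 cell held 14 of 16 and 47 of 70 UMIs of *Fcer1g*. In *tetOP2* and *gg8tTA*, *Alpl* was at 16.1 and 18.7 CPM, above its 11.8 and 12.2 CPM in swap. Among the lower values, *Sult6b1* was at 35.5 and 64.9 CPM in swap and 174 and 172 CPM in control precursors (-1.74, adjusted p = 0.179). It was also lower in the sustentacular cells of swap mice, at 25.0 and 58.3 CPM against 282 and 263 CPM. In *tetOP2* and *gg8tTA* precursors *Sult6b1* was at 80.8 and 108 CPM, between the groups. The neuropeptide *Gal* was at 10.8 and 6.59 against 60.7 and 27.5 CPM (-2.34, adjusted p = 0.479), but it was at 6.96 CPM in *tetOP2* and 12.5 in *gg8tTA*, close to the swap values.

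**Figure D4:**
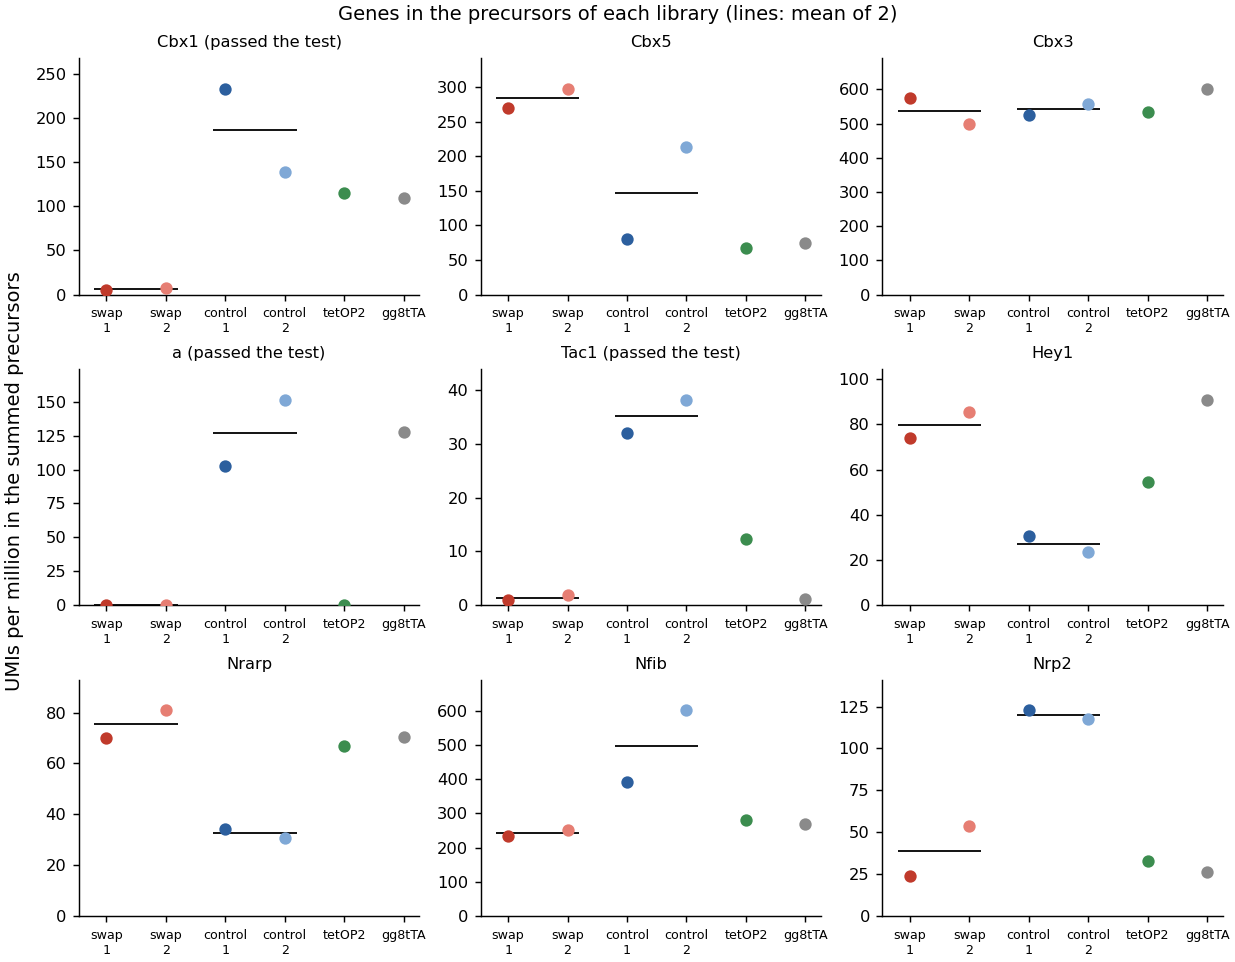
Level in the precursors of each library (CPM) for the 3 HP1 genes, *a*, *Tac1* and 4 genes that did not pass the test, with a line at the mean of the 2 swap and of the 2 control libraries. *Cbx1*, *a* and *Tac1* passed the test, and for *a* the *tetOP2* point lies at 0 with the swap libraries while the *gg8tTA* point lies with the control libraries.

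Apart from *Cbx1* no gene of any list passed the edgeR test, so the members of the lists are described by counts and medians beside the median of -0.0018 and the 49.7% of positive values over all genes tested. Of 43 cell cycle genes, 42 were tested and 39 had a higher value in swap precursors, with a median log2 fold change of 0.31 and 4 genes at an unadjusted p below 0.05. Their summed level was 6635 and 5288 CPM in swap and 3998 and 6150.5 CPM in control precursors, so the groups overlapped in the sum. The lowest sum was that of control replicate 1, where 42.2% of precursors were *Neurog1*-led, and the part of these cells in the count was not tested. *Mcm5*, part of the replicative helicase, was at 58.1 and 45.2 CPM in swap and 20.4 and 30.2 CPM in control mice (1.09, adjusted p = 0.883), with 66.9 in *tetOP2* and 77.2 in *gg8tTA*. Of 14 genes of cell cycle exit and D cyclins, 12 were tested and 8 were positive (median 0.21). *Ccnd1* was at 276 and 200 against 102 and 143 CPM (1.01, adjusted p = 0.796) and the inhibitor *Cdkn1a* (p21) at 28.6 and 17.9 against 47.4 and 43.6 CPM (-0.94).

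Of 25 Notch pathway genes, 13 were tested, 8 were positive and 4 had an unadjusted p below 0.05, all of them higher in swap (median 0.10). Beside *Hey1* these were *Notch1*, *Hes5* and the glycosyltransferase *Lfng* (1.13). *Notch1* was at 181 and 193 against 107 and 84.5 CPM (0.99, adjusted p = 0.796, edgeR), with 74.95 in *tetOP2* and 127 in *gg8tTA*. *Hes5* was at 146 and 244 against 141 and 36.9 CPM (1.12), with 50.9 in *tetOP2* and 113 in *gg8tTA*. The value of *Hes5* ranged from 0.46 to 2.48 when a library was left out. Of 32 proneural and lineage factors, 27 were tested and 18 were positive (median 0.22). *Id4*, an inhibitor of helix-loop-helix factors, was at 122 and 155 against 324 and 217 CPM (-0.94, unadjusted p = 0.00639), but in *tetOP2* and *gg8tTA* it was at 139 and 106 CPM, near the swap values.

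Of 16 factors of OR choice, 15 were tested and 1 was positive, with a median of -0.23. *Lhx2* was at 2045 and 2534 CPM in swap and 2303 and 2677 CPM in control mice (-0.08) and *Ebf1* at 217 and 206 against 357 and 349 CPM (-0.71, unadjusted p = 0.011). All 4 nuclear factor I genes were tested and none was positive (median -0.58). *Nfib* was at 232 and 250 CPM in swap, 392 and 601 CPM in control mice (-0.99, adjusted p = 0.796) and *Nfia* at 109 and 164 against 267 and 251 CPM (-0.89). *Nfib* and *Nfia* belong to the 9 genes that mark position along the dorsoventral axis of the MOE, of which 8 were tested, 2 were positive and 4 had an unadjusted p below 0.05, all lower in swap. The other 2 were *Nrp2*, the axon guidance receptor of ventral OSNs, at 23.6 and 53.6 against 123 and 117 CPM (-1.60, SE 0.34, adjusted p = 0.479), and the adhesion molecule *Ncam2* (-2.46, adjusted p = 0.86). All 4 of these genes mark ventral OSNs. The *tetOP2* and *gg8tTA* libraries, which carry no swap allele, had values near those of swap mice, with *Nrp2* at 32.7 and 26.2 CPM, *Nfib* at 279 and 268 CPM, *Nfia* at 160 and 99.6 CPM and *Ebf1* at 198 and 210 CPM. The 9 dorsoventral genes summed to 600 and 798 CPM in swap, 1087 and 1284 in control mice, 706 in *tetOP2* and 588 in *gg8tTA*.

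Of 31 neurite and axon genes, 29 were tested and 6 were positive (median -0.20), with 4 lower in swap at an unadjusted p below 0.05. *Dclk1*, a microtubule-associated kinase, had a log2 fold change of -1.01, at 49.3 and 78.1 against 134 and 127 CPM, with 86.2 in *tetOP2* and 74.7 in *gg8tTA*. Of 20 mature OSN genes, 11 were tested and 1 was positive (median -0.68). *Gng13* was at 12.8 and 21.6 against 99.9 and 32.9 CPM (-1.95), and it was higher still in *tetOP2* and *gg8tTA*, at 174 and 201 CPM. Its log2 fold change ranged from -2.54 to -0.84 when a library was left out. All 32 heterochromatin genes were tested and 12 were positive (median -0.09). *Trim66*, a chromatin regulator expressed in OSNs, was at 36.4 and 35.7 against 58.3 and 61.0 CPM (-0.69, unadjusted p = 0.0344), and in *tetOP2* and *gg8tTA*, with no swap allele, at 33.7 and 41.7 CPM, near the swap values. Of 14 genes of dissociation stress, 12 were tested and 7 were positive (median 0.21), and *Atf3* was at 4.93, 7.53, 72.8 and 11.4 CPM in the 4 libraries, highest in control replicate 1, and at 23.0 and 28.6 CPM in *tetOP2* and *gg8tTA*.

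The marker lists of other cell types gave no call either. Of 10 sustentacular genes, 6 were tested and none was positive (median -0.71), beside the summed levels given above. Of 11 basal stem cell genes, 5 were tested and 4 were positive (median 0.20), of 5 erythroid genes 3 were tested and 2 were positive (0.53), and of 13 immune genes 2 were tested and 1 was positive (0.04). Of 4 vomeronasal genes, 2 were tested and 1 was positive (-0.41), and none of 10 genes of microvillar cells, glands and glia had enough counts to be tested.

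The response to the swap was also compared between precursors and later neurons of the same libraries, with the library as a block. Against mature OSNs, 10 of 13370 genes (0.0748%) had a different log2 fold change in precursors by the edgeR test, 1 of them higher (0.00748%) and 9 lower (0.0673%), and 675 genes (5.05%) had an unadjusted p below 0.05. Against early immature OSNs it was 13 of 11872 (0.11%), of which 2 were higher (0.0168%) and 11 lower (0.0927%), with 819 (6.9%) at an unadjusted p below 0.05. Gene *a* was among the latter (adjusted p = 0.00311, edgeR). Its difference of -11.21 (SE 1.11) is a fitted value and gives no size, since *a* had 0 UMIs in swap precursors. Most of the others were genes of cells outside the neuronal lineage, and they came from few cells. Of the 22457 UMIs of the gland genes *Obp1a*, *Lcn11*, *Mup5* and *Gm14743* in the precursors of control replicate 1, 22371 were in 1 cell, and the other 3 libraries held at most 16. Of the 3390 UMIs of *Col1a1*, *Col1a2* and *Sparc*, genes of connective tissue and bone, in the precursors of that library, 3308 were in 1 cell. The 18 of 463 precursors that held genes of other cell types were then left out, which was done after seeing the data. No gene then differed against mature OSNs in edgeR (753 at an unadjusted p below 0.05) and only *a* differed against early immature OSNs. The genes that chose these cells included called ones, such as *Obp1a*, *Lcn11*, *Col1a1*, *Col1a2*, *Car1* and *Cd52*. The loss of those calls followed from that choice and is no separate check. In the gates themselves, no gene was called in mature OSNs (0 of 13378, 401 at an unadjusted p below 0.05) or in early immature OSNs (0 of 12302, 330 at an unadjusted p below 0.05). *Cbx1* had log2 fold changes of -5.41 and -5.38 there, close to that in precursors. Even *Cbx1* was thus not called in these gates, so the counts of 0 do not show that no gene changed.

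Precursors of the swap and control libraries had few OR transcripts, with an OR UMI in a smaller share of cells than in a non-neuronal type. The files hold 1116 OR genes, and the 463 precursors of the swap and control libraries had 371 OR UMIs of 168 different ORs, 121 of which were seen in 1 precursor only. Each cell was thinned to 3000 UMIs so that shares could be compared at equal depth, which left out 4, 4, 10 and 4 precursors with fewer UMIs. An OR UMI was then found in 9.72% and 6.85% of swap precursors and in 15.9% and 12.5% of control precursors. Sustentacular cells, a non-neuronal type, had one in 14.0%, 16.8%, 19.2% and 18.3% of cells. Whether these UMIs are free RNA of the suspension was not tested. Single sustentacular cells held up to 38, 63, 17 and 22 OR UMIs before thinning. The precursor share was below that of sustentacular cells in all 4 libraries, so it is not read as OR expression. Relative to *Omp*, which the rule limits in precursors, the order was the reverse. OR UMIs per *Omp* UMI at full depth were 8.33, 10.6, 16 and 9.44 in precursors. In sustentacular cells they were 3.24, 3.70, 3.68 and 2.24. The precursor ratios rest on 3, 5, 13 and 9 *Omp* UMIs, and whether both cell types held the same free RNA was not tested. Before thinning, at a median of 10870.5, 12608, 9827.5 and 14115 UMIs per precursor, the shares were 27.6%, 40.3%, 38.1% and 52.2%, against sustentacular cells with medians of 14788, 17930, 12660.5 and 19269.5 UMIs.

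The share was far higher at the next stage. At 3000 UMIs an OR UMI was found in 76.1%, 81.9%, 80.1% and 83.6% of early immature OSNs and in 88.7%, 91.9%, 90.8% and 91.5% of mature OSNs. Between genotypes the share of precursors with an OR UMI was 8.29% ± 2.03 in swap and 14.2% ± 2.38 in control mice (SD, n = 2), a difference of -5.90 points (p = 0.333, exact permutation test). OR UMIs per precursor at this depth were 0.0967 ± 0.0204 and 0.188 ± 0.0736, a difference of -0.0917 (p = 0.333, exact permutation test), which was -0.0397 without control replicate 1 and -0.144 without control replicate 2. The groups did not overlap. In OR UMIs per cell, precursors were below the sustentacular cells of their library in 3 libraries, at 0.111 against 0.173, 0.0822 against 0.286 and 0.136 against 0.232 (swap replicates 1 and 2 and control replicate 2). In control replicate 1 they were close, at 0.240 and 0.232, and its *Neurog1*-led precursors were at 0.391, with an OR UMI in 20.7% of cells.

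Of the 463 precursors, 12 held 3 or more UMIs of an OR. These were 0 of 76 and 2 of 77 in swap mice (2.60%) and 9 of 218 (4.13%) and 1 of 92 (1.09%) in control mice, and sustentacular cells, which had more UMIs per cell, reached the same level in 5.41%, 5.32%, 3.39% and 4.62% of cells. At 3000 UMIs it was reached by 0%, 0%, 0.481% and 0% of precursors and by 0.576%, 1.27%, 0.754% and 0.817% of sustentacular cells. Of the 12 precursors, 7 held UMIs of at least 2 ORs and 7 held *Gap43* UMIs, the highest count was 11 UMIs, and none was called a doublet. The ORs found most often were *Olfr1033*, in 29 of the 463 precursors (6.26%), and *Olfr1388*, in 17 (3.67%). *Olfr1033* was in 14.9% of sustentacular cells, above its share of precursors and its 9.03% of mature OSNs. *Olfr1388* was in 1.55% of sustentacular cells, below its share of precursors and its 5.08% of mature OSNs.

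The position of ORs along the dorsoventral axis was scored from the dorsoventral genes in mature OSNs that chose each OR, in the *gg8tTA* library and the control library of the other replicate number, which scored 279 ORs for the first and 227 for the second replicates. The most ventral ORs by this score, 70 of the 279 and 57 of the 227, took 2 of 15 and 2 of 36 OR UMIs on scored ORs in swap precursors (13.3% and 5.56%) and 27 of 102 and 8 of 38 in control precursors (26.5% and 21.1%). The means were 9.44% ± 5.50 and 23.8% ± 3.83 (SD, n = 2), a difference of -14.3 points (p = 0.333, exact permutation test). These shares rest on 2 to 27 ventral UMIs. The sustentacular cells of the same libraries had ventral shares of 6.31%, 15.9%, 17.7% and 18.8%, and the mature OSNs 13.1%, 13.1%, 31.9% and 31.6%.

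The *tetOP2* library showed an OR driven from outside in precursors. *Olfr17* (chr7:107097467-107098414, GRCm38) had 999 UMIs in its 142 precursors (535 CPM) and 0 in the precursors of the other 5 libraries, which allows shares of cells with a UMI of up to 3.95%, 3.90%, 1.38%, 3.26% and 2.44% (3 cells of the total). It was found in 91 precursors (64.1%), and 39 precursors had at least 3 UMIs (27.5%, exact interval 20.3% to 35.6%), with up to 69 in a cell. Sustentacular cells of this library also held *Olfr17*, at 3 UMIs or more in 30 of 400 cells (7.5%). At an equal depth of 3000 UMIs, 32.4% of precursors and 18.0% of sustentacular cells had an *Olfr17* UMI, and 19.7% and 0.5% had at least 3. In early immature and mature OSNs of this library 44.4% and 57.9% of cells reached 3 UMIs at full depth.

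Any other OR reached 3 UMIs in 1.41% of *tetOP2* precursors, against 39.1% of early immature and 39.9% of mature OSNs. Within the precursors *Olfr17* was higher in cells with *Gap43* or *Gng8*, as a description over cells of 1 library. The 89 cells without *Gap43*, a gene limited by the rule, had a mean of 3.90 UMIs of *Olfr17* (found in 58.4% of cells) and the 53 cells with it 12.3 (73.6%). The 16 cells without *Gng8*, the gene whose promoter drives the transactivator, had a mean of 0.688 (43.8% of cells) and the others 7.84 (66.7%). By *Neurog1* the mean and the share of cells went in opposite directions, since the 26 precursors without *Neurog1* had a mean of 11.3 with *Olfr17* in 53.8% of cells, and those with it a mean of 6.07 with *Olfr17* in 66.4%. In this library 14.8% of precursors had a UMI of another OR at equal depth, below the 20% of its sustentacular cells. In *gg8tTA* 39.0% of precursors and 36.1% of sustentacular cells had an OR UMI.

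**Figure D5:**
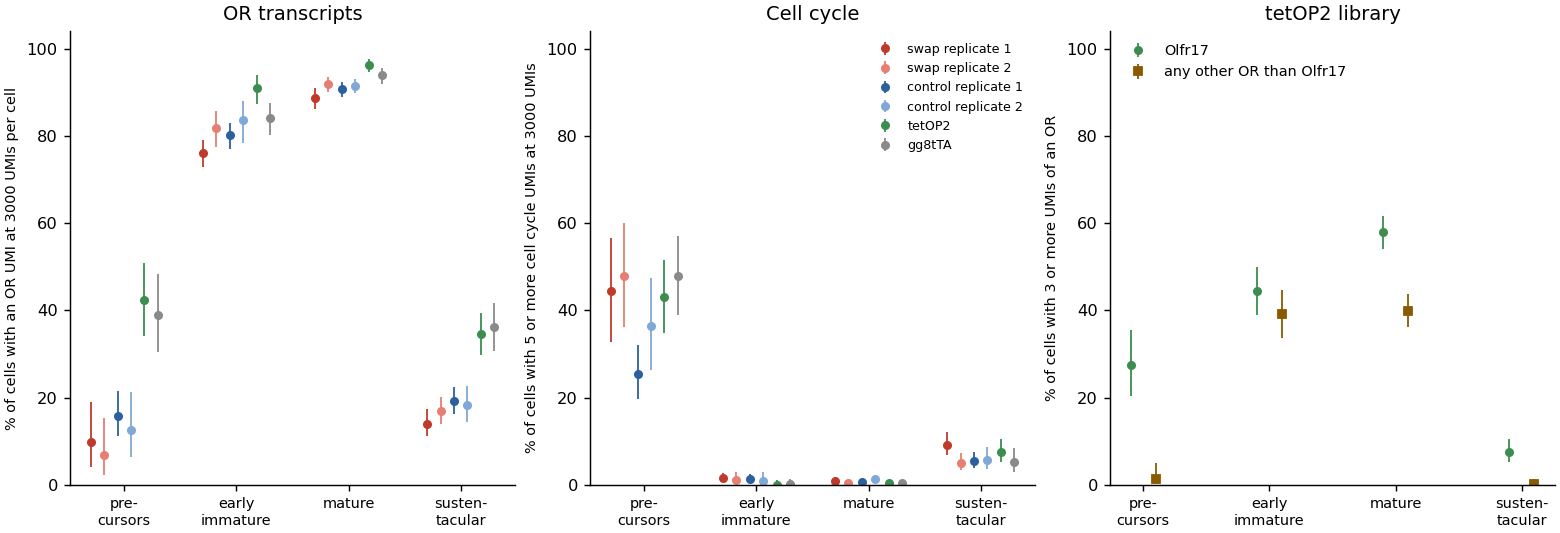
Share of cells per library and gate with an OR UMI (left) and with at least 5 UMIs of the 43 cell cycle genes (middle), each cell thinned to 3000 UMIs, and, for the *tetOP2* library alone, share of cells with at least 3 UMIs of *Olfr17* or of any other OR (right); bars are 95% exact intervals. The precursor OR shares of the swap and control libraries lie at or below those of sustentacular cells, and the cell cycle shares of precursors, 25.5% to 48.0%, lie above those of early immature OSNs.

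A large share of precursors still expressed cell cycle genes. At 3000 UMIs, at least 5 UMIs of the 43 genes were found in 44.4% and 47.9% of swap precursors, 25.5% and 36.4% of control precursors, 43.0% of those of *tetOP2* and 48.0% of those of *gg8tTA*. The share was 0% to 1.48% in early immature OSNs and 5.07% to 9.21% in sustentacular cells. Before thinning it was 59.2%, 66.2%, 40.8%, 58.7%, 57.7% and 69.9% in precursors. Swap precursors had a mean of 46.2% ± 2.48 and control precursors 30.9% ± 7.70 (SD, n = 2), a difference of 15.3 points between groups that did not overlap (p = 0.333, exact permutation test). Without control replicate 1 the difference was 9.83 points. Among *Neurog1*-led cells the share was 16.1% in control replicate 1 (14 of 87) and 38.5% in *tetOP2* (10 of 26). In the other libraries such cells were few, with 4 of 7 and 2 of 6 in swap, 3 of 6 in control replicate 2 and 1 of 11 in *gg8tTA*. In *Neurod1*-led precursors alone the shares were 44.4% and 48.5% in swap, 33.9% and 35.4% in control, 45.0% in *tetOP2* and 53.3% in *gg8tTA*, a difference of 11.8 points between swap and control. The *tetOP2* and *gg8tTA* libraries, which carry no swap allele on their labels, lay with the swap libraries and not with the control libraries.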

How the data were processed

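The authors deposited UMI counts per gene and cell barcode for 6 libraries (10x Chromium v3), made with Cell Ranger with introns included (3.1.0 in 4 file headers) on mm10 per the labels, with no normalization. Cells with 1000 UMIs and 500 genes were kept, and precursors were taken by the rule given above. The other gates were early immature OSNs (*Gap43* at least 5), mature OSNs (*Omp* at least 10 and above *Gap43*) and sustentacular cells (*Cyp2g1* at least 20), without overlap. The members and gene lists were chosen with earlier results of these data known.

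Counts were summed per library over precursors and tested with edgeR 4.0.16 (TMM, filterByExpr, quasi-likelihood test, Benjamini-Hochberg adjustment over all genes tested) in R 4.3.3, with DESeq2 1.42.0 as an alternative. Differences between gates used sums per library and gate with the library as a block. Scripts were tested on simulated counts, in which the comparison with mature OSNs recovered 4 of 100 genes changed 2-fold and 30 of 100 changed 4-fold, with 4 wrong calls. Shares were compared by exact two-sided permutation over libraries, with Python 3.11.15 and scipy 1.17.1. Predicted doublets were kept, and removing them was an alternative, as were other UMI thresholds, normalizations and low-count filters, leaving out each library, and the replicate block. The limit of a count of 0 is 3 UMIs. The named genes were the HP1 and rule genes, the 3 most abundant and the 2 of smallest p of each list, the called genes or the 5 of smallest p in each direction, the leading genes of precursors by the ratio to the highest of the other 3 gates, and the most frequent ORs. Other genes named (*Lfng*, *Ncam2*, *Raly*, *Eif2s2* and several stage genes) were chosen after their values were seen. Positions are from RefSeq (GRCm38.p6) and overlaps from GENCODE. Part of the genotype labels and a gate of basal cells are not reported here. No sequence was analysed here.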

Additional observations from a re-analysis of the deposited data

Results flagged for a closer look

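The effect of the swap on 10 genes differed between precursors and mature OSNs, and on 13 genes between precursors and early immature OSNs, by the edgeR test of the difference itself (adjusted p below 0.05). Against mature OSNs, the difference in log2 fold change was 8.63 for *Car1* (adjusted p = 0.027), -8.62 for *Obp1a* (7.50e-06), -7.19 for *Lcn11* (7.03e-05), -5.74 for *Col1a1* (0.000234), -8.03 for *Gm14744* (0.000782) and -5.16 for *Col1a2* (0.000782). Against early immature OSNs, it was 1.61 for *Mdk* (adjusted p = 0.0165), 3.42 for *Cd52* (0.0415), -7.75 for *Spp1* (3.10e-05), -8.77 for *Lcn11* (3.10e-05), -8.64 for *Obp1a* (0.000154), -14.47 for *Bglap2* (0.000329) and -9.10 for *Col1a2* (0.000596). These are the genes with the smallest adjusted p in each direction. *Bglap2* had 0 UMIs in the precursors of both swap libraries and of control replicate 2, so its -14.47 is a fitted value and gives no size.

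Apart from *Mdk*, most UMIs of each of these genes in the 4 libraries were in 1 precursor or, for *Cd52*, in 1 precursor of each swap library. Of 621 *Spp1* UMIs, 578 were in 1 precursor of control replicate 1, and a precursor of that library likewise held 73 of 74 *Bglap2* UMIs, 1240 of 1285 *Col1a2* UMIs or 1847 of 1858 *Gm14744* UMIs. A precursor of swap replicate 2 held 135 of 145 UMIs of *Car1*, a carbonic anhydrase of red blood cells. *Mdk*, the growth factor midkine, was spread over cells, at 1020 and 725 CPM in swap precursors, 547 and 418 CPM in control precursors, 599 in *tetOP2* and 715 in *gg8tTA*, against 11.5 and 11.1 CPM in swap and 18.7 and 17.4 CPM in control early immature OSNs. With the members that held genes of other cell types left out, *Mdk* did not pass, and the cause was not tested. It was found in 267 of the 463 precursors, with at most 62 of its 3744 UMIs in a cell.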

How the results depend on the processing

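For the 6 measures over cells (share, share per 100 neurons, OR UMIs, OR share, ventral share and cell cycle share), every alternative run kept the direction. When each library was left out in turn, the differences were -2.74 to -0.538 points for the share of precursors, -6.46 to -0.717 per 100 neurons, -0.144 to -0.0397 OR UMIs per precursor, -7.58 to -4.21 points for the OR share, -18.2 to -10.4 points for the ventral share and 9.83 to 20.7 points for the cell cycle share. The 3 called genes became 7 with DESeq2 and 112 with no filter on low counts, and 46 to 109 when a library was left out. The 10 calls against mature OSNs became 3 to 178 when a library was left out, 0 in edgeR (753 at an unadjusted p below 0.05) without the members that held genes of other cell types, and 5 in *Neurod1*-led members. The 13 calls against early immature OSNs became 11 to 121 when a library was left out and 1 without those members. The alternatives by members were chosen after seeing the data, and the genes that chose the members left out were among the calls. *Cbx3*, near 0, ranged from -0.0870 without swap replicate 1 to 0.140 without swap replicate 2 and was -0.00486 at 2 UMIs and -0.0242 in *Neurod1*-led members, *Cxcl14* ranged from -2.75 without control replicate 2 to 0.71 without control replicate 1, and *Col1a2* from -6.55 without swap replicate 1 to 0.415 without control replicate 1. *Tac1* was no longer called at 5 UMIs (-4.46) or 2 UMIs (-2.63). The cause of these changes was not tested, except that a single member held most UMIs of each of *Obp1a*, *Lcn11*, *Col1a1* and *Col1a2*. Of the other named-gene values, 471 kept their side of the threshold and 64 passed it under an alternative.

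Replicate numbers are shared by swap and control, and the main tests did not use them as a pairing. The deviations of same-numbered libraries had a correlation of 0.32 over 8787 genes. UMIs of the gland genes were found in 13 swap and 73 control precursors of the libraries numbered 1 and in 0 of those numbered 2. With only 2 pairs, whether the replicate number marks a shared batch was not tested. With the replicate number as a block, 7 genes were called in precursors, and 169 and 192 differed against mature and early immature OSNs. Within replicate numbers 1 and 2, the share of precursors differed by -2.76 and -0.519 points.

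Depth limits what can be said of OR transcripts in precursors, which held 25, 53, 208 and 85 OR UMIs in the swap and control libraries.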

Other observations

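Centriole genes were described as a group because *Plk4* and *Stil* stood among the leading genes, and the list was therefore chosen after the values were seen. Of 13 such genes in the files, 12 had a higher mean level in precursors than in early immature OSNs, mature OSNs and sustentacular cells, beside 1030 of the 2256 genes that reached 50 CPM in the precursors of every library, a level that several of the 13 do not reach. *Cep152*, which recruits *Plk4* to the centriole, was at 149 CPM in precursors, 5.18 in early immature and 3.60 in mature OSNs. The cartwheel gene *Sass6* was at 58.1, 18.5 and 6.10 CPM and *Cenpj* at 84.5, 27.9 and 3.52 CPM. *Cep63* was at 95.6, 28.3 and 29.4 CPM and *Cep192* at 11.8, 2.73 and 1.89 CPM. Genes that drive centriole amplification in multiciliated cells were low but again had a higher mean in precursors than in the other 3 gates. *Gmnc* was at 8.95 CPM, *Mcidas* at 4.75 CPM and *Ccno* at 12.2 CPM. This did not hold in every library. *Ccno* was at 6.90 and 0.941 CPM in swap precursors against 7.34 and 4.40 CPM in swap mature OSNs, and *Gmnc* was at 0 in the precursors of swap replicate 2. The exception was *Foxj1*, a master factor of motile cilia, at 9.23 CPM in precursors and 71.8 CPM in mature OSNs. In swap against control precursors *Plk4* had a log2 fold change of 0.13 (unadjusted p = 0.654) and *Stil* of 0.00 (unadjusted p = 0.993, edgeR), so neither passed.

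Of the 5 ORs found most often in precursors, *Olfr984*, *Olfr482* and *Olfr259* were found in a larger share of precursors than of mature OSNs or sustentacular cells. ORs ranked by how often they were found in precursors tend to such a difference, so this is a description with no test, and several ORs found less often had it too. *Olfr984* was in 14 of the 463 precursors (3.02%; 1, 1, 7 and 5 in the 4 libraries), 0.263% of mature OSNs and 0.728% of sustentacular cells, and in 2 precursors of *tetOP2* and 4 of *gg8tTA*. *Olfr259* was in 8 precursors (1.73%), 0.0718% of mature OSNs and 0.0455% of sustentacular cells. *Olfr482* was in 10 precursors (2.16%; 2, 0, 8 and 0 in the 4 libraries, so among these in replicate number 1 alone), 1.84% of mature OSNs and 0.91% of sustentacular cells. It was also in 7 precursors of *tetOP2* and 8 of *gg8tTA*. No other annotated gene overlaps the models of *Olfr984* and *Olfr259*, and that of *Olfr482* overlaps *Gm44870* on the same strand.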
